A study of Mus musculus with 8 samples.

Results

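The genes described here encode the proteins of the mitochondrial ribosome, in mouse liver with and without regrowth after partial hepatectomy. They were taken by symbol: every gene whose probe sets carry exactly 1 symbol beginning with Mrpl or Mrps and a digit, represented by the probe set with the highest mean signal over the 8 arrays. That gave 76 genes of the 14450 tested, 47 named for the large subunit (Mrpl) and 29 for the small subunit (Mrps), on 156 probe sets in all. All 76 passed the filter on low signal. The rule uses symbols and mean signal and no measured difference, but the family was chosen with earlier results of these data known. Expression was measured on Affymetrix arrays with pooled liver RNA of male C57BL/6 mice aged 7 to 10 weeks, each array holding a different pool of 3 animals. The 4 groups of 2 arrays each were Tob1 null mice at 24 h after removal of the median and left lateral lobes, Tob1 null mice without surgery (0 h), wild type mice at 24 h after the same operation and wild type mice without surgery. Tob1 encodes an antiproliferative protein that binds the CCR4-NOT deadenylase, and the null mice came from an established line on the same C57BL/6 background. No sham-operated group was analysed here, so loss of liver tissue cannot be told apart from anaesthesia and surgery. The whole liver pools mix cell types, so fewer cells of a type and less RNA per cell cannot be told apart.

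The Tob1 probe set was not lower in the arrays labelled null. Its log2 signal was 10.66 and 10.58 in the null-labelled arrays at 24 h and 11.10 and 11.03 at 0 h, against 9.87 and 10.20 in wild type at 24 h and 10.46 and 10.53 at 0 h. The sources used here do not give where this probe set lies relative to the deleted part, so it does not settle the labels, and these arrays are called null-labelled throughout. At each time both null-labelled arrays lay above both wild type arrays. Whether the labels of the genotypes were exchanged was not tested, and if they were, the sign of every comparison between genotypes below would turn. Arrays of the same group correlated between 0.951 and 0.959 over all probe sets. The second null-labelled array at 24 h had the lowest 25th percentile of deposited signal, 2.26 against 2.59 to 2.88 in the other 7 arrays.

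Mitochondria keep their own ribosome to translate the few messages of the mitochondrial genome, all of them parts of the respiratory chain and ATP synthase. Its ribosomal RNAs are made inside the organelle, whereas its proteins are encoded in the nucleus, made on cytosolic ribosomes and imported. Some descend from bacterial ribosomal proteins, and others are found only in mitochondria. Promoters of such nuclear genes are known for binding sites of the ETS factor GABPA, of NRF1 and of YY1.

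The RefSeq promoter windows (build GRCm38.p6, 250 bases before to 50 after the start of transcription, 300 bases in all) were found for 67 of the 76 genes. Windows were searched on both strands for CCGGAAG (an ETS site, as GABPA binds), GCGCATGC (the NRF1 core), AAGATGG (the YY1 core), TATAAA (the TATA box) and CACGTG (the E box). No motif contains another, but CCGGAAG ends with the letters that begin AAGATGG, so neighbouring matches can share bases, and CACGTG reads the same on both strands. CCGGAAG was present in 25 of the 67 genes (37.3%), compared with 12.9% of 17492 protein-coding genes. GCGCATGC was present in 8 (11.9%, compared with 3.94%) and AAGATGG in 13 (19.4%, compared with 7.18%). TATAAA was present in 5 (7.46%, compared with 14.8%), and CACGTG also in 5 (7.46%, compared with 8.91%). The median GC content was 58.7% in these windows and 56.3% in those of all protein-coding genes. These shares are descriptions of letters, and no test was made of them.

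Windows of 5 genes are shown because their transcripts carry the results below: Mrps18b passed the test in both genotypes, Mrpl17, Mrpl23 and Mrpl14 passed it in wild type, and Mrps27 had the smallest p for a difference between the genotypes' responses. They lie at chr17:35916391-35916690 (minus strand), chr7:105811038-105811337 (minus strand), chr7:142532782-142533081 (plus strand), chr17:45686099-45686398 (plus strand) and chr13:99344536-99344835 (plus strand). Each is written 5′ to 3′ on the strand of the gene, and capitals mark matches to any of the 5 motifs on either strand.
Mrps18b: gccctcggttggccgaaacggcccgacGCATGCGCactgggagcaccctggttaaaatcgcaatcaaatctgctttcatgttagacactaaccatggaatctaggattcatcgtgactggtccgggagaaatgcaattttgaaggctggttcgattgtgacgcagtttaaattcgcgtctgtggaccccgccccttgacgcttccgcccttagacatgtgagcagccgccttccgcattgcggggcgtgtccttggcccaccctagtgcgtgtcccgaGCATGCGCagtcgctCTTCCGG
Mrpl17: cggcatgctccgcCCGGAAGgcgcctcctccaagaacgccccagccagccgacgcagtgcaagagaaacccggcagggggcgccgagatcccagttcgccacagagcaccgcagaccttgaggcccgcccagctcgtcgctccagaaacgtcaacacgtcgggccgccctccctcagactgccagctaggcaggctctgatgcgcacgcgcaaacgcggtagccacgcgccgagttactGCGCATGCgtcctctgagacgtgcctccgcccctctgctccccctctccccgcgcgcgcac
Mrpl23: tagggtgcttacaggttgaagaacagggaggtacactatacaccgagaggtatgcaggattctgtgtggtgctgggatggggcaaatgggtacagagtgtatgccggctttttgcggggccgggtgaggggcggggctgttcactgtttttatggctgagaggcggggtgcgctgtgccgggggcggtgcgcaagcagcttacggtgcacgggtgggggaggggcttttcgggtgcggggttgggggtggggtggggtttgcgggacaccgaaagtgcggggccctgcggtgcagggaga
Mrpl14: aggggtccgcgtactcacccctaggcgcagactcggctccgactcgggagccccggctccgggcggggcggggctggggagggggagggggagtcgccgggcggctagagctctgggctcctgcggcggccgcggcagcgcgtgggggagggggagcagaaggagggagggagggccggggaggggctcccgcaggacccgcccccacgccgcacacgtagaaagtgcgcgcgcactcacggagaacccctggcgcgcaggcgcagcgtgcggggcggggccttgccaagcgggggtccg
Mrps27: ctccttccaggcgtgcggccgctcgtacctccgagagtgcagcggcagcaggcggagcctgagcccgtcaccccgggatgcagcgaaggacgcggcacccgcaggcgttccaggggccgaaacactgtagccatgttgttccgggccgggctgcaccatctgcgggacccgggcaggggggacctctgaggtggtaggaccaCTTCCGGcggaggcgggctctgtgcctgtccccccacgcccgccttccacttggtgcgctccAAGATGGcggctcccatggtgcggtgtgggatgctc
In Mrps18b the capitals are 2 NRF1 cores and an ETS site, all read on the opposite strand, and in Mrpl17 an ETS site and an NRF1 core. Mrps27 holds an ETS site on the opposite strand and a YY1 core just after the start. The windows of Mrpl23 and Mrpl14, whose transcripts fell, hold none of the 5 motifs, which says only that these letters are not in these windows. Of the 17 genes that rose over both genotypes (below), 14 have a window, and 6 of the 14 hold CCGGAAG (42.9%), 2 the NRF1 core (14.3%), 1 the YY1 core (7.14%), 2 TATAAA and 0 CACGTG.

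The 76 genes as a group had their highest centred signal in null-labelled liver at 24 h and their lowest in null-labelled liver at 0 h. After each gene was centred on its mean over the 8 arrays, the median gene lay at 0.13 and 0.17 log2 units in the null-labelled arrays at 24 h and at -0.12 and -0.07 at 0 h. In wild type the medians were -0.04 and 0.02 at 24 h and -0.06 and -0.02 at 0 h. The null-labelled 24 h arrays lay above, and the null-labelled 0 h arrays below, all 4 wild type arrays, while the wild type times overlapped. The pooled SD between arrays of a group was 0.03 for this median. The same medians over all 14450 genes were within 0.04 of 0 in each array.

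**Figure D1:**
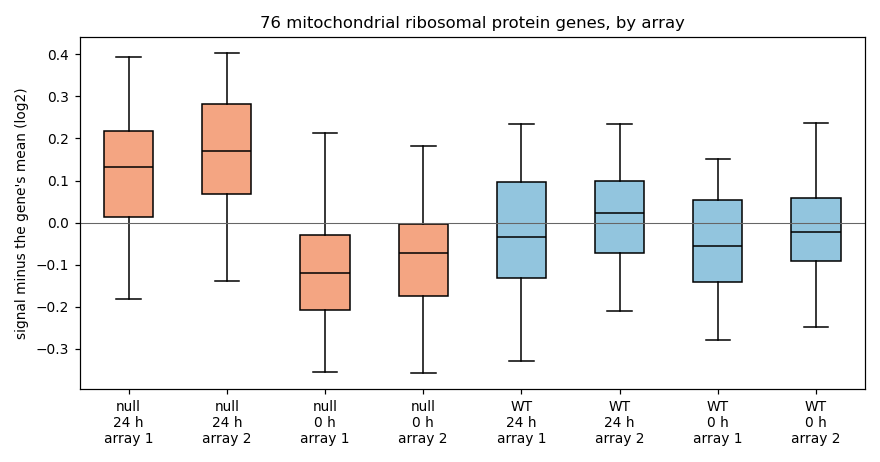
Log2 signal of the 76 genes in each array, each gene centred on its mean over the 8 arrays. The line in a box is the median gene, the box spans the 25th to 75th percentile and the whiskers the 5th to 95th. The 2 null-labelled arrays at 24 h have medians of 0.13 and 0.17, above the other 6 arrays.

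The ratio of 3′ to 5′ signal and the summed signals of marker lists for other cell types moved with some of these groups. For beta-actin the 3′ probe set exceeded the 5′ probe set by 1.22 and 1.32 log2 units in the null-labelled arrays at 24 h and by 1.59 and 1.54 at 0 h, against 1.03 and 0.91 in wild type at 24 h and 1.04 and 1.40 at 0 h. For Gapdh the excess was 0.07 and 0.24 in the null-labelled arrays at 24 h and 0.54 and 0.51 at 0 h, against at most 0.28 in the 4 wild type arrays. The null-labelled 0 h arrays, where the 76 genes lay lowest, were thus highest for both. Summed signals of 12 leucocyte and Kupffer cell markers spanned 1650 to 1740 (linear units) in the null-labelled arrays at 24 h and 1480 to 1500 at 0 h, against 1540 to 1730 in wild type at 24 h and 1500 to 1680 at 0 h. Among these 12, 2 rose and 1 fell in null-labelled liver and 1 rose in wild type. For this and the other marker lists, the background was 7.45% of all genes called higher and 7.22% lower in null-labelled liver. In wild type it was 4.13% and 5.09%. Over both genotypes 4 of the 12 were called higher and 4 lower, with differences from -0.71 to 4.07, so the sum covers opposite moves. The 6 ductal markers summed to 894 to 1140 and 665 to 733 in the null-labelled arrays at 24 h and 0 h, and to 826 to 887 and 923 to 978 in wild type, with 0 called in either genotype (limma; at an unadjusted p under 0.05, 1 higher and 0 lower in null-labelled liver and 1 each way in wild type). The 10 endothelial markers summed to 1650 to 1850 and 1350 to 1690 in the null-labelled arrays, and to 1530 to 1890 and 1970 to 2070 in wild type, with 1 higher in null-labelled liver. The 11 hepatocyte markers summed to 81300 to 83700 and 85900 in the null-labelled arrays, and to 84500 to 87800 and 82200 to 86300 in wild type. Of these, 2 fell in null-labelled liver and 1 in wild type. The 10 stellate and matrix markers summed to 2270 to 2330 and 2110 to 2580 in the null-labelled arrays, and to 2380 to 2570 and 2350 to 2700 in wild type, with 2 lower in null-labelled liver and 1 lower in wild type. No marker list summed to 0 in any array, and the part of RNA quality or cell makeup in the results was not tested.

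After hepatectomy, 8 of the 76 genes rose in null-labelled liver and 0 fell (limma, adjusted p under 0.05 over all genes tested). The background was 7.45% of all genes called higher and 7.22% called lower, so the share of the 76 called higher (8 genes) lay near that of all genes. The whole group lay higher: the difference was above 0 for 60 of the 76 (background 47.5%), and both arrays at 24 h exceeded both at 0 h for 52 (background 29.7%). The median difference was 0.26 log2 units, with quartiles of 0.07 and 0.36, compared with -0.03 over all genes. At an unadjusted p under 0.05, 31 of the 76 were higher and 1 was lower, where 16.3% of all genes were higher and 17.7% lower.

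Mrps18b, a small subunit protein related to bacterial S18, had the largest rise. Its signal was 9.54 and 9.71 in null-labelled liver at 24 h, against 8.75 and 8.71 at 0 h, so the times did not overlap. The difference was 0.90 ± 0.12 log2 units (SE), or 1.86-fold, with an adjusted p of 0.0137. Mrpl40, a mitochondria-specific protein of the large subunit, gave 8.33 and 8.36 at 24 h, against 7.59 and 7.66 at 0 h, a rise of 0.72 ± 0.11 (adjusted p = 0.0189). Mrpl19, the relative of bacterial L19 at the face between the subunits, gave 7.84 and 7.83 at 24 h, against 7.15 and 7.17 at 0 h, a rise of 0.68 ± 0.12 (adjusted p = 0.0230). In each of these genes the times stood apart by far more than the arrays of a time did.

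Mrps22, a mitochondria-specific small subunit protein whose human gene is mutated in a disorder of mitochondrial translation, gave 9.55 and 9.46 in null-labelled liver at 24 h, against 8.76 and 8.75 at 0 h (0.75 ± 0.14, adjusted p = 0.0260). Mrps6, the relative of bacterial S6, gave 8.45 and 8.42 at 24 h, against 7.83 and 7.90 at 0 h (0.57 ± 0.11, adjusted p = 0.0290). Mrps23, also specific to mitochondria, gave 7.73 and 8.01 at 24 h, against 7.27 and 7.22 at 0 h (0.63 ± 0.13, adjusted p = 0.0348). Its arrays at 24 h were the most spread of the 8 genes. Mrps34, needed for a stable small subunit, gave 9.63 and 9.61 at 24 h, against 9.12 and 9.16 at 0 h (0.48 ± 0.11, adjusted p = 0.0425). A further probe set annotated to both Nme3 and Mrps34 went the other way (-0.49 ± 0.20). Mrpl50 gave 8.91 and 8.85 at 24 h, against 8.34 and 8.47 at 0 h (0.48 ± 0.12, adjusted p = 0.0462).

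The count of 8 depended on single arrays and on the settings: it was 0 when the 2 groups were fitted alone, 4 with no filter and 24 with a trended robust prior. Leaving out the first or the second null-labelled 24 h array gave 4 and 1, either null-labelled 0 h array 0, either wild type 24 h array 6 and either wild type 0 h array 2. With arrays centred on their medians in place of quantile normalisation, 1245 of 1714 genes called over the whole table were higher, compared with 1076 of 2120, and 7 of the 76 were called higher.

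In wild type liver the 76 genes split. After hepatectomy 2 rose and 2 fell, where 4.13% of all genes were called higher and 5.09% lower. The difference was above 0 for 43 of the 76 (background 47.6%), both arrays at 24 h lay above both at 0 h for 33 (background 29.4%), and both lay below for 25 (background 32.7%). The median difference was 0.07, with quartiles of -0.14 and 0.20, compared with -0.03 over all genes.

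Mrps18b rose in wild type too, with 9.60 and 9.55 at 24 h, against 8.91 and 8.91 at 0 h (0.66 ± 0.12, or 1.58-fold, adjusted p = 0.0290). Mrpl17, the relative of bacterial L17 near the exit of the peptide tunnel, gave 10.53 and 10.19 at 24 h, against 9.55 and 9.58 at 0 h (0.79 ± 0.16, or 1.73-fold, adjusted p = 0.0381). Its other probe sets ran the other way: at mean signals of 5.70 and 4.23 they differed by -0.71 and -0.51 in wild type, and the mean of its 3 probe sets gave -0.14. The direction given for Mrpl17 is therefore that of its brightest probe set.

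Mrpl23, the relative of bacterial L23 at the same tunnel exit, had 7.90 and 7.80 in wild type at 24 h, against 8.59 and 8.58 at 0 h. It fell by 0.73 on the log2 scale (SE 0.11, 0.604-fold, adjusted p = 0.0222). Mrpl14, the relative of bacterial L14 on the face toward the small subunit, had 7.49 and 7.82 at 24 h, against 8.40 and 8.52 at 0 h. It fell by 0.81 on the log2 scale (SE 0.15, 0.572-fold, adjusted p = 0.0337). Both had the same sign in null-labelled liver without passing the test. Mrpl23 had 7.99 and 8.04 at 24 h there, against 8.44 and 8.42 at 0 h (-0.41 ± 0.11, adjusted p = 0.0571, limma), the lowest difference of the 76. Mrpl14 had 8.15 and 8.05, against 8.38 and 8.51 (-0.34 ± 0.15, adjusted p = 0.179, limma). No member was called in wild type when any 1 of the 4 arrays at 0 h, or wild type 24 h array 1, was left out, nor with median centring. Leaving out wild type 24 h array 2 gave 1 rise and 1 fall, and either null-labelled 24 h array 2 and 2.

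**Figure D2:**
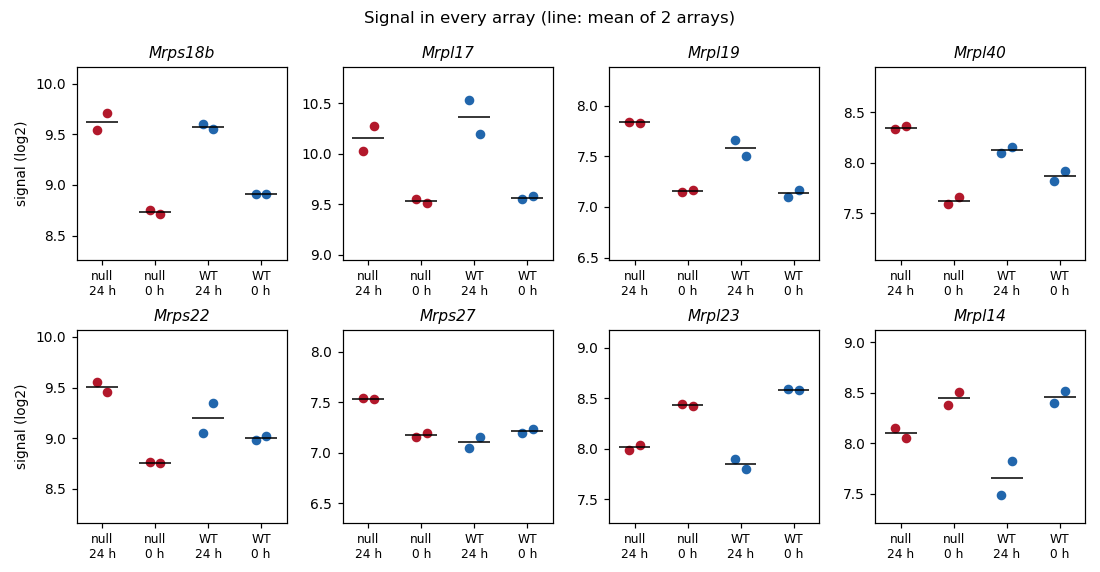
Log2 signal of 8 genes in every array, points for arrays and lines for the mean of 2 arrays, with each vertical axis spanning the same range around the gene's mean. Mrps18b is higher at 24 h in both genotypes, Mrpl40 and Mrps22 are spread more widely between the times in null-labelled than in wild type arrays, and Mrpl23 and Mrpl14 are lower at 24 h.

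The mean of both responses sets 4 arrays at 24 h against 4 at 0 h and carries the smallest errors. In it 17 of the 76 rose and 3 fell, where 13.8% of all genes were called higher and 15% lower. The difference was above 0 for 55 (background 46.8%), all 4 arrays at 24 h lay above all 4 at 0 h for 28 (background 15%), and all lay below for 7 (background 16.5%). The median was 0.15, compared with -0.04 over all genes. Mrps18b led with 0.78 ± 0.08 (1.72-fold, adjusted p = 0.00350), followed by Mrpl17 with 0.70 ± 0.11 and Mrpl19 with 0.56 ± 0.08. Mrpl17 had 10.03 and 10.27 in null-labelled liver at 24 h, against 9.55 and 9.51 at 0 h. Mrpl19 had 7.66 and 7.50 in wild type at 24 h, against 7.10 and 7.17 at 0 h, so for these 3 genes the times did not overlap in either genotype.

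The other 14 that rose were Mrpl1 (0.52), Mrpl40 (0.49), Mrps22 and Mrpl55 (0.47 each), Mrpl52 (0.42), Mrps6 and Mrps23 (0.40 each), Mrps34 (0.35), Mrpl50 (0.34), Mrpl15, Mrpl16, Mrpl21 and Mrps17 (0.33 each) and Mrps10 (0.31). Of these, Mrpl55, a mitochondria-specific large subunit protein, gave 8.14 and 8.34 in null-labelled liver at 24 h, against 7.74 and 7.73 at 0 h, and 8.21 and 8.00 in wild type at 24 h, against 7.66 and 7.69 at 0 h. Every array of Mrpl55 at 24 h lay above every array at 0 h. Mrpl40 had 8.10 and 8.16 in wild type at 24 h, against 7.82 and 7.92 at 0 h. Mrps6 had 8.06 and 8.06 in wild type at 24 h, against 7.78 and 7.88 at 0 h. These wild type differences of 0.26 and 0.23 did not pass the test on their own. Mrpl1, the relative of bacterial L1 on the ribosome's mobile stalk, is less settled, since its 2 dimmer probe sets gave -0.09 and -0.28. Mrpl14 (-0.58 ± 0.11), Mrpl23 (-0.57 ± 0.08) and Mrpl28 (-0.30 ± 0.08), the relative of bacterial L28, fell. All 3 probe sets of Mrpl28 lay below 0, between -0.42 and -0.29. Leaving out 1 array gave 13 rises without either null-labelled array at 24 h, 4 without either at 0 h, 8 without either wild type array at 24 h, and 4 and 5 without the first and the second at 0 h. The falls then numbered 1 to 4, with 1 without the second array of either 0 h group. With median centring 15 of the 76 were called higher and 1 lower, and 2215 of 3543 calls over all genes were higher, compared with 1990 of 4162.

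**Figure D3:**
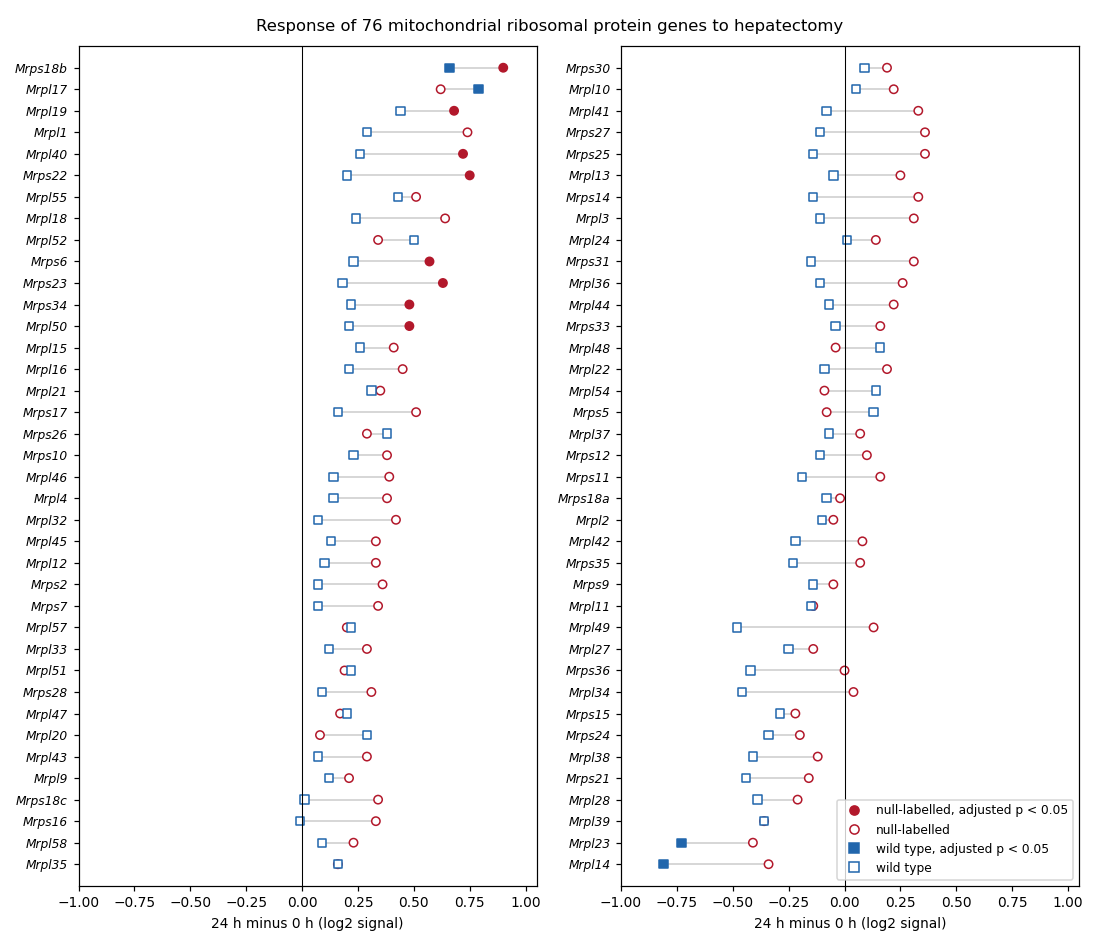
Difference between 24 h and 0 h for each of the 76 genes, circles for null-labelled and squares for wild type liver, ordered by the mean of both. Filled symbols passed the test: 8 circles above 0, and among the squares Mrps18b and Mrpl17 above 0 and Mrpl23 and Mrpl14 below it.

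Across the 76 genes the differences in the genotypes were ordered alike, with Pearson's r of 0.76 and Spearman's rho of 0.71 (0.66 by Pearson's r over all genes). This is a description across genes measured on the same 8 arrays. Both differences were above 0 for 40 genes and both below for 13. For 20 genes the difference was above 0 in null-labelled and below 0 in wild type liver, and for 3 (Mrpl48, Mrpl54 and Mrps5) the reverse held. In 6 of the 20 (Mrpl36, Mrpl44, Mrps11, Mrps14, Mrps25 and Mrps27) the arrays of the times did not overlap in either genotype. The shares of all genes with these pairs of signs, or with this pattern of arrays, were not counted, so these counts have no background. Within a genotype such arrays were common. Both arrays at 24 h lay above both at 0 h for 29.7% of all genes in null-labelled liver, and below for 32.7% in wild type. A second Mrps14 probe set (mean signal 7.65) was below 0 in both genotypes, at -0.13 in null-labelled and -0.37 in wild type liver. A second Mrpl44 probe set (mean signal 8.34) gave 0.02 and -0.11.

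Genes of both subunits lay mostly above 0 in null-labelled liver, and in wild type those of the small subunit were split. In null-labelled liver 37 of 47 Mrpl genes had a difference above 0 (median 0.22, 3 called higher), and so had 23 of 29 Mrps genes (median 0.31, 5 called higher). In wild type 29 of 47 Mrpl genes (median 0.10, 1 called higher and 2 lower) and 14 of 29 Mrps genes (median -0.01, 1 called higher) had one above 0. Counting Mrps30 and Mrps18a with the large subunit, where structures place them, gave 49 genes and medians of 0.22 and 0.09 in null-labelled and wild type liver. The 44 genes with a bacterial relative had a median of 0.26 in null-labelled and 0.06 in wild type liver, with 2 called higher in null-labelled liver. The 31 counted as specific to mitochondria had medians of 0.29 and 0.09, with 6 called higher in null-labelled liver. Mrps18b and Mrps18a are among the 31, since they are related to bacterial S18 without taking its place in the ribosome, and Mrps18b is 1 of the 6. For the calls of these classes the background was 7.45% of all genes called higher in null-labelled liver. In wild type it was 4.13% higher and 5.09% lower. The difference between these classes was not tested.

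Some genes can be set side by side by ancestry or by place in the ribosome. Among the relatives of bacterial S18, Mrps18b rose by 0.90 in null-labelled and 0.66 in wild type liver, whereas Mrps18c, another copy in the small subunit, differed by 0.34 and 0.01 and Mrps18a, which sits in the large subunit, by -0.02 and -0.08. Of the stalk proteins that recruit translation factors, Mrpl12, also known to bind the mitochondrial RNA polymerase, differed by 0.33 in null-labelled and 0.10 in wild type liver. Mrpl10 differed by 0.22 and 0.05, and Mrpl11 at the stalk base by -0.14 and -0.15. A second Mrpl11 probe set with a mean of 8.34 gave 0.57 and 0.39, so the sign for Mrpl11 depends on the probe set. Around the tunnel exit Mrpl17 lay at 0.62 in null-labelled liver and rose by 0.79 in wild type, Mrpl23 lay below 0 in both, and Mrpl22 (0.19 and -0.09) and Mrpl24 (0.14 and 0.01) lay between them. Mrpl45, which holds the ribosome to the inner membrane, gave 0.33 and 0.13, and Mrpl58, a peptidyl-tRNA hydrolase built into the large subunit, 0.23 and 0.09. Mrps12 of the decoding centre gave 0.10 and -0.11, and Mrps7, the relative of bacterial S7, 0.34 and 0.07. Among the genes of these sites Mrps18b, Mrpl17 and Mrpl23 alone had a call in either genotype.

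Mrpl46 and Mrps11 are read away from each other on chromosome 7, with promoter windows that overlap (chr7:78783040-78783339 on the minus strand and chr7:78782881-78783180 on the plus strand). Mrpl46 differed by 0.39 in null-labelled and 0.14 in wild type liver, and Mrps11 by 0.16 and -0.19. Neither passed the test in either genotype.

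At 24 h most of the 76 genes stood higher in null-labelled than in wild type liver, each by a small amount. No member was called in limma (background 0.00692% of all genes, a single gene). The difference was above 0 for 67 of the 76 (background 50.9%), and both null-labelled arrays exceeded both wild type arrays for 44 (background 20.9%). The median was 0.15 (quartiles 0.05 and 0.23), compared with 0.01 over all genes. At an unadjusted p under 0.05, 9 of the 76 were higher and 0 lower, where 6.41% of all genes were higher and 5.33% lower. With median centring the median of all genes moved to 0.14 and that of the 76 to 0.32, a distance of 0.18 between them. The 9 were Mrps36, Mrps27, Mrpl41, Mrps6, Mrpl3, Mrps16, Mrpl14, Mrpl36 and Mrps25.

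Mrps36 had the largest difference, with 8.11 and 8.37 in null-labelled liver at 24 h, against 7.34 and 7.65 in wild type (0.74 ± 0.18, adjusted p = 0.256, limma). Despite its name this protein is now known as a subunit of the 2-oxoglutarate dehydrogenase complex, and without it 66 of 75 genes were above 0 with a median of 0.14. Mrps27, a small subunit protein with RNA-binding repeats, had 7.54 and 7.53 in null-labelled liver, against 7.05 and 7.16 in wild type (0.43 ± 0.11, adjusted p = 0.276, limma). Mrpl41 had 9.12 and 9.28 in null-labelled liver, against 8.67 and 8.82 in wild type (0.46 ± 0.13, adjusted p = 0.302), and Mrps6 had 8.45 and 8.42, against 8.06 and 8.06 (0.37 ± 0.11, adjusted p = 0.326). In these 4 genes the groups did not overlap. Mrpl20 lay lowest, with 9.31 and 9.88 in null-labelled liver, against 9.76 and 9.94 in wild type (-0.25). Its groups overlapped, and without the first null-labelled array its difference was 0.04.

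Before surgery most of the 76 lay slightly lower in null-labelled than in wild type liver. At 0 h no member was called (background 0% of all genes), the difference was above 0 for 24 of the 76 (background 51.3%) and the median was -0.06, compared with 0.01 over all genes. Both null-labelled arrays lay below both wild type arrays for 33 genes (background 23.9%) and above them for 10 (background 24.2%). At an unadjusted p under 0.05 limma gave 0 higher and 1 lower, where 4.87% of all genes were higher and 4.75% lower. The 1 was Mrps12, the protein of the decoding centre, with 8.71 and 8.68 in null-labelled liver, against 8.97 and 9.13 in wild type (-0.35 ± 0.13, adjusted p = 0.510). Mrpl16 (9.04 and 8.94, against 9.22 and 9.33), Mrps23 (7.27 and 7.22, against 7.54 and 7.53) and Mrpl40 (7.59 and 7.66, against 7.82 and 7.92) also lay lower in both null-labelled arrays. Mrps36 lay highest, at 8.38 and 8.10 in null-labelled liver, against 7.92 and 7.90 in wild type (0.33 ± 0.18).

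The response in null-labelled liver exceeded that in wild type for most members, while no single gene passed. The difference between the responses was above 0 for 66 of the 76 (background 50%), with a median of 0.23 (quartiles 0.09 and 0.34), compared with 0.00 over all genes. No member was called (background 0%), and the smallest adjusted p was 0.555 in limma. At an unadjusted p under 0.05, 6 were higher and 0 lower, where 4.57% of all genes were higher and 4.04% lower. By subunit 39 of 47 Mrpl genes (median 0.21) and 27 of 29 Mrps genes (median 0.27) were above 0. The median stayed between 0.19 and 0.26 when single arrays were left out, with 61 to 68 genes above 0. With median centring the median of all genes moved to 0.12 and that of the 76 to 0.39, a distance of 0.27.

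The 6 were Mrps27 (0.47 ± 0.16), Mrps14 (0.47 ± 0.16), Mrpl40 (0.46 ± 0.16), Mrps22 (0.55 ± 0.20), Mrps25 (0.50) and Mrps31 (0.47). Mrps14, the relative of bacterial S14, had 9.65 and 9.61 in null-labelled liver at 24 h, against 9.24 and 9.36 at 0 h, and 9.33 and 9.41 in wild type at 24 h, against 9.52 and 9.49 at 0 h. Mrps27 had 7.16 and 7.20 in null-labelled liver at 0 h and 7.20 and 7.24 in wild type, so its groups were close before surgery. Mrps22 in wild type had 9.05 and 9.35 at 24 h, against 8.98 and 9.02 at 0 h, and the first of those arrays lay close to the 0 h level. The largest value was that of Mrpl49 (0.61), whose arrays scattered: 8.58 and 7.98 in null-labelled liver at 24 h, against 8.15 and 8.15 at 0 h, and 7.62 and 8.22 in wild type at 24 h, against 8.33 and 8.46 at 0 h. The lowest was that of Mrpl54 (-0.22), whose times overlapped in both genotypes.

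**Figure D4:**
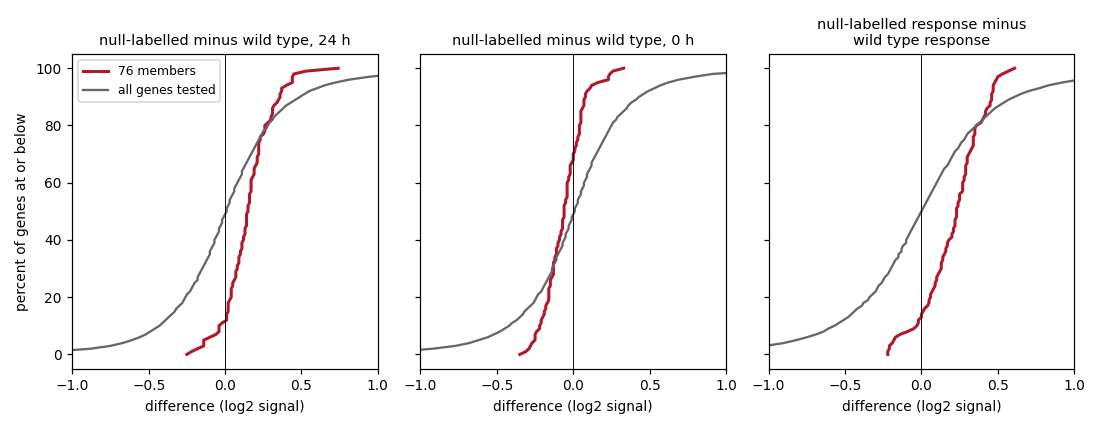
Cumulative share of genes (percent, vertical axis) at or below each log2 difference (horizontal axis), red for the 76 genes and grey for all 14450. The red curve lies right of 0 for most genes in the left panel (67 of 76 above 0 at 24 h) and the right panel (66 of 76), and left of 0 in the middle panel (24 of 76 above 0 at 0 h).

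Other probe sets of the same genes gave a partial check, being different probes on the same arrays. The 67 further probe sets that passed the filter, for 39 genes, had a median signal of 6.46, compared with 8.75 for the probe sets used. At 24 h 48 of the 67 were above 0 between the genotypes (median 0.09), and in the difference between the responses 44 of 67 were (median 0.15). The sign was that of the probe set used for 48 and 40 of the 67 in these comparisons, but for only 30 between the genotypes at 0 h. For the response in wild type 32 of the 67 were above 0 (median -0.01), and 45 had the sign of the probe set used. The 25 with a mean signal above 7, a limit used for this check alone, covered 19 genes. Of these 25, 24 were above 0 at 24 h (median 0.14) and 23 in the difference between the responses (median 0.19). In the wild type response 13 of the 25 were. For the response in null-labelled liver 39 of the 67 were above 0 (median 0.14), 43 had the sign of the probe set used, and 18 of the 25 brighter ones were above 0. Of the genes called there, Mrpl19, Mrpl50, Mrps23 and Mrps6 each had such a second probe set higher after hepatectomy in null-labelled liver, by 1.16, 0.61, 1.14 and 0.75.

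The cytosolic ribosomal proteins, the other family a growing cell needs for translation, lay higher after hepatectomy in both genotypes. In null-labelled liver 40 of 42 had a difference above 0 after hepatectomy (median 0.24, background 47.5%). There 3 were called higher, near the 7.45% of all genes. In wild type 40 of 42 had a difference above 0 (median 0.28, background 47.6%), and 0 were called. At an unadjusted p under 0.05 in limma, 18 of the 42 were higher in wild type, where 1996 of all 14450 genes were. The difference between the responses was above 0 for 17 of 42 with a median of -0.02, compared with 66 of 76 and 0.23 for the mitochondrial proteins. At 24 h 36 of the 42 were higher in null-labelled liver (median 0.12), and at 0 h 39 of 42 were (median 0.11), whereas for the mitochondrial proteins 24 of 76 were at 0 h. The contrast between the families was not tested, and both comparisons share the same arrays.

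Genes that serve the mitochondrial ribosome were set beside it, with the same background over all genes: 7.45% called higher in null-labelled liver, 4.13% in wild type, and 13.8% called higher and 15% lower over both genotypes. Of 26 import genes tested of 30 listed, 6 rose in null-labelled liver (median 0.26) and 3 in wild type (median 0.17), and over both genotypes 10 rose and 1 fell. Tomm20, an import receptor of the outer membrane, gave 1.17 ± 0.13 over both genotypes, Timm17a of the inner membrane channel 0.87 ± 0.12, Timm8a1 of the intermembrane space 0.60 ± 0.09 and Grpel1, the exchange factor of the import motor, 0.55 ± 0.08. All 4 rose over both genotypes. The difference between the responses was above 0 for 18 of the 26, with a median of 0.10.

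The 26 assembly factors tested of 32 listed went both ways, 8 up and 3 down over both genotypes. Tfb1m, which methylates the small ribosomal RNA, rose by 0.64 ± 0.08, Mrm2, a methyltransferase of the large ribosomal RNA, by 0.58 ± 0.08 and Rpusd4, a pseudouridine synthase, by 1.10 ± 0.17. Rbfa, which helps mature the small subunit, fell by 0.54 on the log2 scale (SE 0.08). Of 19 mitochondrial tRNA synthetases and related enzymes tested of 20 listed, 5 rose and 4 fell over both genotypes. The smallest p-values were those of Qrsl1, which helps make glutaminyl-tRNA and rose (0.78 ± 0.09), and Lars2, the leucyl-tRNA synthetase, which fell (-0.60 ± 0.09). Ears2, for glutamyl-tRNA, rose by 0.64 ± 0.12, and Gatb, a partner of Qrsl1, gave -0.70 ± 0.14 and fell. Among 14 translation factors tested of 16 listed 1 rose over both genotypes, the release factor Mtrf1l (0.46 ± 0.09), and 0 fell (limma, 1 lower at an unadjusted p under 0.05).

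Genes for mitochondrial DNA upkeep and transcription lay on both sides of 0, and those called over both genotypes were lower. Of 14 tested of 16 listed, 6 had a difference above 0 over both genotypes (median -0.13, background 46.8%). There 0 were called higher and 3 lower, where 13.8% of all genes were called higher and 15% lower (at an unadjusted p under 0.05, limma gave 0 higher and 4 lower). The 3 were Polg2 (-0.75 ± 0.12) and Polg (-0.62 ± 0.11), the subunits of the mitochondrial DNA polymerase, and Mterf1a (-0.84 ± 0.17), a transcription termination factor. The 5 mitoribosome proteins with other symbols, of 8 listed, had no member called over both genotypes (limma, 1 higher at an unadjusted p under 0.05). Dap3, the GTP-binding protein of the small subunit, differed by -0.07 in null-labelled and -0.14 in wild type liver, and Ptcd3 by 0.28 and 0.15. The difference between the responses was mostly above 0 in these lists too. It was so for 17 of 26 assembly factors (median 0.11), 12 of 19 synthetases (0.11) and 9 of 14 translation factors (0.24). For mitochondrial DNA genes 9 of 14 were (0.16), and 5 of 5 with other symbols (0.12). Among markers, 9 of 10 endothelial (0.47), 5 of 6 ductal (0.62) and 8 of 12 leucocyte genes (0.30) were. Only 5 of 10 stellate (0.02) and 3 of 11 hepatocyte markers (-0.10) were.

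Of 11 regulators, 1 rose and 3 fell over both genotypes, where 13.8% of all genes were called higher and 15% lower. Gabpa, which encodes the ETS factor whose site is marked in the windows above, had 7.88 and 7.98 in null-labelled liver at 24 h, against 8.62 and 8.65 at 0 h, and 7.69 and 7.64 in wild type at 24 h, against 8.34 and 8.39 at 0 h. It fell in both genotypes, with log2 differences of -0.71 in null-labelled and -0.70 in wild type liver. Ppargc1b, a coactivator of mitochondrial genes, fell by 1.61 in null-labelled liver and fell by 2.14 in wild type liver, while its relative Ppargc1a rose by 0.44 ± 0.13 over both genotypes. Lonp1, the matrix protease, fell by 0.44 on the log2 scale over both genotypes. Nrf1 (-0.12 ± 0.11) and Yy1 (-0.03 ± 0.08) did not pass the test.

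**Figure D5:**
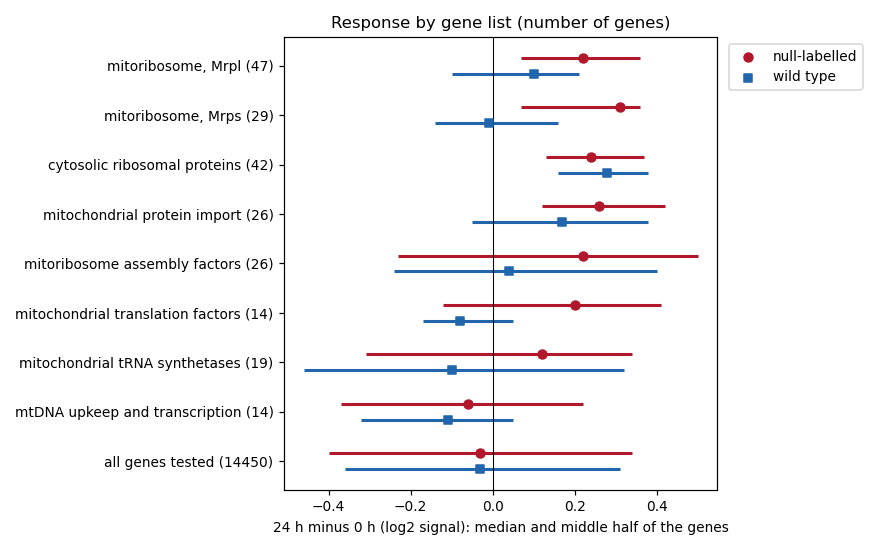
Difference between 24 h and 0 h by gene list, with the median gene as a point and the 25th to 75th percentile as a line, red circles for null-labelled and blue squares for wild type liver. The Mrps genes lie at 0.31 and -0.01, the Mrpl genes at 0.22 and 0.10, and the cytosolic ribosomal proteins at 0.24 and 0.28.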

How the data were processed

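Liver RNA of 8 pools of 3 mice was measured on 8 Affymetrix arrays. The deposited values are log2 signals, whose low values are steps of the linear signal. Trimmed means of the linear signal were alike between arrays (94.4 to 99.3), as earlier scaling between arrays would give. That such scaling was done is inferred from these means alone. No label or header names the signal algorithm. The table held 45101 probe sets, and after removal of 64 controls the other 45037 were quantile normalised (limma 3.58.1, R 4.3.3), and probe sets above the 40th percentile (a log2 signal of 3.60) in at least 2 arrays were kept. Symbols came from the platform annotation, where 34945 probe sets have 1 symbol, 932 several and 9160 none. For each gene the brightest probe set with 1 symbol was used, which gave 14450 genes. No build was given for the array, so positions come from RefSeq windows alone.

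A model of 4 group means was fitted with limma (4 residual and 2.01 prior degrees of freedom), p-values are two-sided, and Benjamini-Hochberg adjustment ran over all genes tested, with calls at 0.05. The linear model was checked on simulated data with differences larger than any member showed, so the check does not cover differences of the size reported here. The p-values measure the spread between pools, and 2 arrays a group limit their precision. Array numbers did not pair arrays, since deviations of same-numbered arrays correlated between -0.06 and 0.02 over 6 pairs of groups.

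Array values are given for the called genes with the smallest p (at most 8, or 4 where fewer than 4 were called) and for the largest difference in each direction. Genes of other lists are named if called over both genotypes, at most 4 a list by p, or where a result turns on them. Genes and lists were chosen with earlier results of these data known. Alternatives were the deposited values, median centring, damping of low values (16 added on the linear scale), other filters (none, 60th percentile), other choices of probe set, a trended robust prior, array weights, a replicate block, a threshold of 0.1, fits on the compared groups alone, and each array left out.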

Additional observations from a re-analysis of the deposited data

How the results depend on the processing

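Counts of called genes moved with the settings, and directions of the 6 comparisons' medians did not. For null-labelled liver after hepatectomy (8 higher, 0 lower), damping of low values gave 13 and 1, no filter 4 higher, the 60th percentile filter 19 and 1, the trended robust prior 24 and 1, a threshold of 0.1 23 and 1, and the 2 groups alone 0 higher, where fewer arrays set the error. Its median of 0.26 became 0.44 with median centring and 0.19 with the mean of all probe sets. For wild type (2 higher, 2 lower), median centring gave 0 and 0, no filter 0 and 1, the 60th percentile 4 and 4, the mean of probe sets 1 higher, the trended prior 5 and 4, the threshold of 0.1 5 and 4, and its 2 groups alone 0 and 0. Its median of 0.07 became 0.12 with median centring. For the mean of both genotypes (17 higher, 3 lower), no filter gave 9 higher, and the falls became 1 with median centring, 5 with damping, 7 with the 60th percentile, 9 with the trended prior and 8 at 0.1. Its median of 0.15 became 0.25 with median centring. Between genotypes the 24 h median of 0.15 became 0.32 with median centring, and that of the difference between responses (0.23) 0.28 with deposited values and 0.39 with median centring. The replicate block left 2 rises in null-labelled liver, 0 rises and 0 falls in wild type and 9 rises over both genotypes. Leaving out 1 array gave 0 to 6 rises and medians of 0.22 to 0.30 in null-labelled liver. In wild type it gave 0 to 2 rises, 0 to 2 falls and medians of 0.03 to 0.07. Over both genotypes it gave 4 to 13 rises and 1 to 4 falls. The median at 0 h lay between -0.09 and -0.04 and that of the difference between responses between 0.19 and 0.26. No member was called between genotypes under any of these settings. Mrpl17 turned to -0.14 in wild type and -0.17 over both genotypes with the mean of its probe sets, and Mrpl20 between genotypes at 24 h lay between -0.53 and 0.04 when single arrays were left out. Of the values of named genes under these settings, 720 kept their side of the threshold, 227 lost a call, 4 gained one and 3 turned. The cause of these moves was not tested.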

Other observations

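A few probe sets carry a mitochondrial ribosomal symbol together with another gene's and are therefore outside the 76. One annotated to both Ccdc142 and Mrpl53 had 9.39 and 9.40 in null-labelled liver at 24 h, against 8.53 and 8.67 at 0 h, and 8.98 and 9.14 in wild type at 24 h, against 8.79 and 8.82 at 0 h. It rose in null-labelled liver by 0.80 ± 0.14 log2 units (adjusted p = 0.0274, limma), and in wild type it differed by 0.25 (adjusted p = 0.303). The difference between those responses was 0.55 (adjusted p = 0.601). One annotated to both Nme3 and Mrps34 had 7.39 and 7.07 in null-labelled liver at 24 h, against 7.81 and 7.63 at 0 h, and 6.51 and 6.92 in wild type at 24 h, against 7.74 and 7.86 at 0 h. It fell in wild type (-1.09, adjusted p = 0.0425), opposite in sign to the probe set of Mrps34 alone. The probe sets annotated to Gm6238 and Mrpl30 differed by 0.20 and 0.17 in null-labelled and -0.01 and 0.09 in wild type liver. At 24 h they lay higher in null-labelled than in wild type liver by 0.28 and 0.23. Neither was called in any of these comparisons. Which of the 2 genes each probe set measured cannot be told apart here.

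Some genes differed between their own probe sets. Mrpl57 had a dimmer probe set at 1.21 in null-labelled and 0.26 in wild type liver after hepatectomy, and Mrps5 one at -0.85 and -0.69.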
